A study of Drosophila melanogaster with 4 samples.

Results

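The regions described here are the H3K9acS10P clusters in the euchromatic part of the left arm of chromosome 2 (2L) of Drosophila melanogaster. They are the enriched regions of the deposited combined list whose midpoint lies between position 1 and position 21011544 of 2L on FlyBase release 5, which leaves out the 2 Mb of the arm sequence nearest the centromere. The rule uses position alone, and 1442 of the 9877 clusters of the list met it. The last cluster inside the limit ran from 21009478 to 21012170 and the first one outside it from 21015020 to 21017410. The limit left out 92 of the 1534 clusters of the arm. The same limits gave 979 clusters in the list of ChIP replicate 1 and 1067 in that of ChIP replicate 2.

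The series has 4 samples, all from wild-type Oregon-R-modENCODE animals at the 3rd instar larval stage, with no treatment and no other genotype. There are 2 ChIP samples, made from nuclei with a new Abcam lot of an antibody against H3K9acS10P, and 2 input samples, each paired by its number with a ChIP sample for which it served as background. Tissue was homogenised and the labels name no organ, so the clusters may come from a mix of cell types, and lists of regions give no marker to check the tissue. Separate cultures are not stated for the replicates, and the differences between them may be technical. There is 1 condition, so no test between conditions was possible, and clusters and bins along 1 arm are not replicates. All values below are therefore descriptions, given in the combined list and in both replicate lists. The combined list comes from the ChIP samples of the replicate lists and is not independent of them.

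H3K9acS10P is histone H3 with an acetyl group on lysine 9 and a phosphate on the neighbouring serine 10. Acetylation of lysine 9 is a mark of active promoters. Phosphorylation of serine 10 is best known from condensed mitotic chromosomes. In interphase nuclei of flies it is placed by the kinase JIL-1, which is found in the open interbands of the polytene chromosomes of larval tissues. Methylation of the same lysine is the mark that HP1 binds in heterochromatin, so an H3 tail with lysine 9 acetylated cannot carry that heterochromatin mark. The gene positions given for this work are on another release than the clusters, so no gene is placed in a cluster or a gap below.

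Clusters covered 19.8% of this euchromatin in the combined list, 13.7% in replicate 1 and 15.1% in replicate 2. The mean of the replicates was 14.4% ± 0.953 (SD, n = 2). Density was 68.6 clusters per Mb in the combined list and 48.7 ± 2.96 per Mb over the replicates (SD, n = 2). Clusters were thus narrow islands on a mostly uncalled arm. At a resolution of 10 kb, 1056 of 2101 bins (50.3%) held no cluster base in the combined list, and 1168 bins (55.6%) held none in either replicate. In the same 2101 bins, 720 (34.3%) were occupied in both replicates and 213 (10.1%) in only 1 of them. The lists hold regions that passed the authors' threshold and the files give no signal below it. A stretch with no cluster may therefore hold the mark under that threshold, or sequence where reads could not be placed, and these cannot be told apart.

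Coverage was uneven from 1 bin of 100 kb to the next. Over the 210 complete bins, the combined list covered a mean of 19.8% and a median of 18.2%, with the middle of the distribution between 6.47% and 29.1% (quartiles) and the highest bin at 62.7%. No cluster base was found in 23 bins of the combined list, 34 of replicate 1 and 29 of replicate 2, and 22 bins were empty in all 3 lists. The number of cluster midpoints per bin ran up to 19 in the combined list, and its variance was 3.00 times its mean, with 2.85 in replicate 1 and 3.23 in replicate 2. A bin is called dense where its coverage was at least 2 times the mean bin of its list, and sparse where it was at most 0.25 times that mean. In the combined list these limits fall at 39.7% and 4.96%.

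By this rule 26 bins (12.4%) were dense and 40 (19.0%) were sparse in the combined list. Over all 5 large arms without their 2 Mb next to the centromere, each set against its own mean, 9.46% of 100 kb bins were dense and 16.5% were sparse. Replicate 1 gave 33 dense and 47 sparse bins, and replicate 2 gave 33 and 53. No bin was dense in 1 list and sparse in another, 22 bins were dense in all 3 lists and 37 were sparse in all 3.

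**Figure D1:**
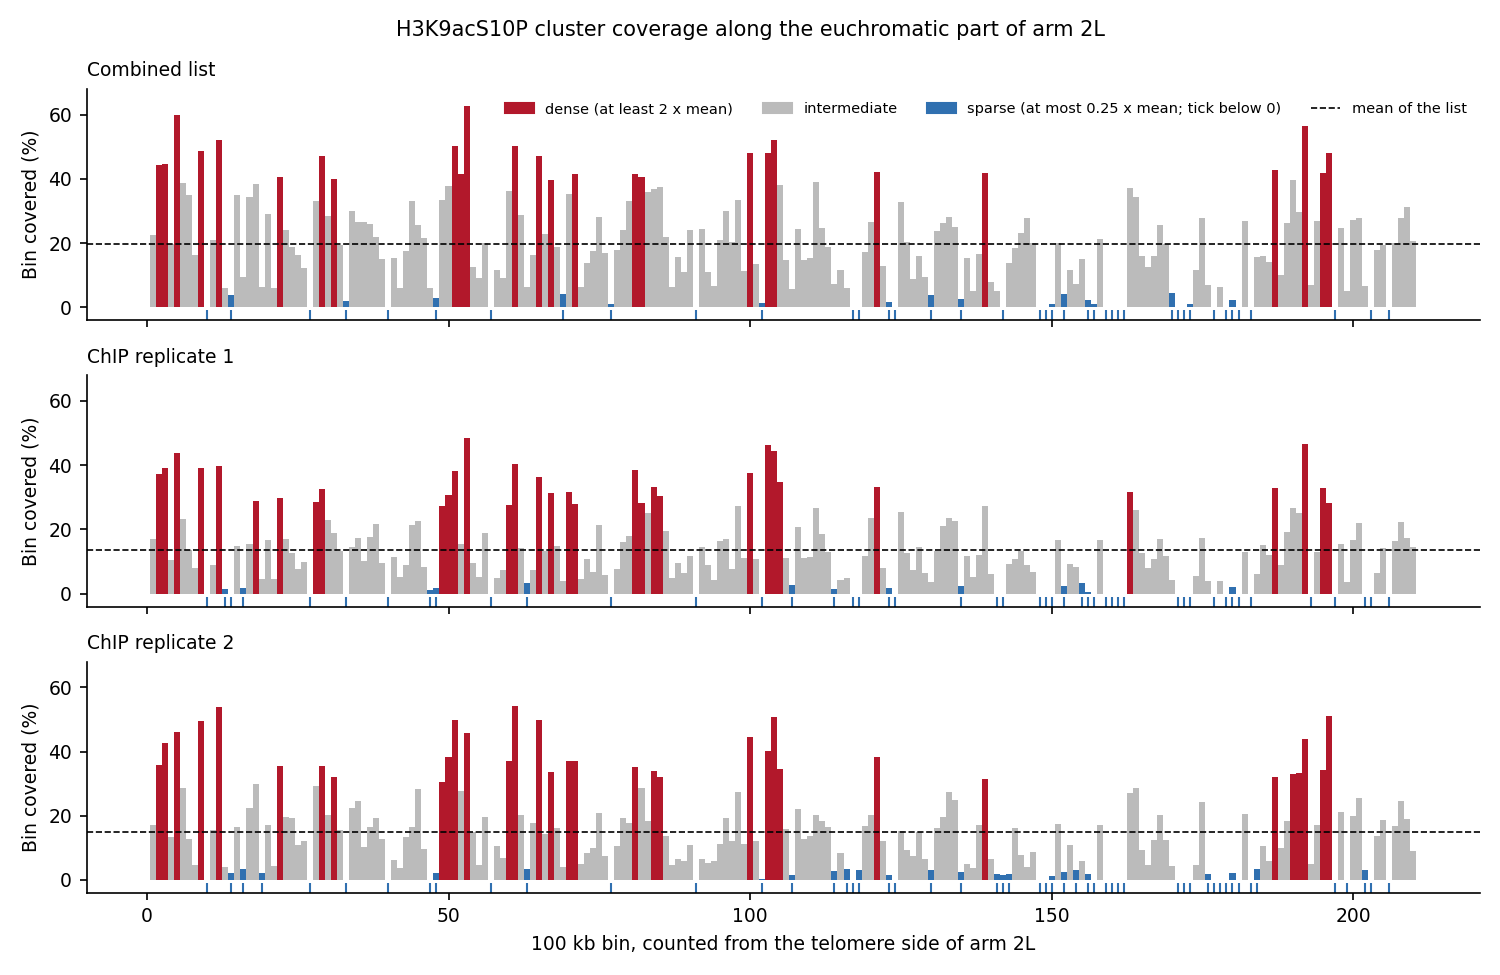
Percentage of each 100 kb bin covered by clusters (vertical axis) along the euchromatic part of arm 2L (horizontal axis, bins counted from the telomere side) in the combined list and in both ChIP replicates. Red bars are dense bins, blue bars and ticks under the axis are sparse bins, and dashed lines are the mean bin of each list; 20 of the 26 dense bins of the combined list lie among the 105 bins nearer the telomere and 29 of its 40 sparse bins among the other 105.

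The arm was not evenly filled from end to end. The 105 bins nearer the telomere had a mean coverage of 24.3% in the combined list, 16.9% in replicate 1 and 18.9% in replicate 2. The 105 bins nearer the centromere had 15.4%, 10.6% and 11.3%. The centromere side was therefore covered at 0.631 of the telomere side in the combined list and at 0.612 ± 0.0211 over the replicates (SD, n = 2). The telomere side held 20 dense and 11 sparse bins, and the centromere side held 6 dense and 29 sparse bins. In replicate 1 the counts were 27 and 14 against 6 and 33, and in replicate 2 they were 25 and 14 against 8 and 39.

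The other large arms, cut in the same way, showed smaller differences between their sides. The centromere side was covered at 1.04 ± 0.0157 of the telomere side on 2R, 0.910 ± 0.0651 on 3L, 1.02 ± 0.0286 on 3R and 0.963 ± 0.0324 on X (SD, n = 2 replicates each). The value of 2L was below that of every other arm in both replicates. With 1 arm of each kind no test of this difference was possible.

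Much of the deficit lay between 14 and 18 Mb, a stretch picked out after the profile had been seen. Its 40 bins, 19.0% of the bins, had a mean coverage of 10.4% in the combined list, 6.55% in replicate 1 and 6.36% in replicate 2. They held 18 of the 40 sparse bins and no dense bin of the combined list. They also held 176 clusters, 44.0 per Mb, against 74.4 per Mb over the other 170 bins. The stretch was not evenly sparse, as the 1 Mb that begins at 16000001 was covered at 16.7%, 12.2% and 11.9% in the 3 lists. That was more than in the 1 Mb bins outside it that begin at 11000001 (15.1%, 10.4% and 10.9%) and 12000001 (14.8%, 11.3% and 10.9%). Within this stretch, the 1 Mb that begins at 14000001 held 59 combined clusters with widths of 1435 bp at the median, and 18.6% of these overlapped a cluster of both replicates. Over all 21 complete 1 Mb bins that width and that share were the lowest. The other 65 bins nearer the centromere had a mean coverage of 18.4% in the combined list, 13.0% in replicate 1 and 14.3% in replicate 2, still under the telomere side. Past 18 Mb the arm filled again, but not evenly. The 1 Mb that begins at 19000001 was covered at 26.7%, 18.2% and 22.6% in the 3 lists, with 87 combined clusters. The 1 Mb that begins at 18000001 was covered at 19.1%, 13.4% and 13.4%, and that at 20000001 at 17.1%, 11.4% and 13.0%.

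Runs of at least 2 neighbouring dense bins formed 5 dense domains of the combined list, 4 of them on the telomere side. Drawn on the replicates there were more, 9 in replicate 1 (8 on the telomere side) and 8 in replicate 2 (6 on the telomere side). The first ran from 100001 to 300000, close to the telomere, and was covered at 44.5%, 38.2% and 39.2% in the combined list, replicate 1 and replicate 2. It held 24 clusters, 18 of which overlapped clusters of both replicates, and its median cluster score of 0.766 was well above the 0.403 of the arm. The score is the authors' own value for each cluster and is used here only to rank and describe clusters of 1 list. The longest domain ran from 5000001 to 5300000 and was covered at 51.4%, 34.0% and 41.1%. Neither replicate drew this domain as a whole: clusters filled 15.3% of the bin from 5100001 to 5200000 in the first replicate and 27.7% in the second, which made it intermediate in each, and both drew a domain from 4800001 to 5100000 instead. The domain from 5000001 to 5300000 held 40 clusters of the combined list with a low median score of 0.383, and it contained the most covered bin of the arm, from 5200001 to 5300000, at 62.7%, 48.5% and 45.7%.

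The domain from 8000001 to 8200000 was covered at 41.1%, 33.3% and 31.9%. It was built from 21 clusters that were wide, with a median of 4053 bp against 2237 bp over the arm, and it held the second highest score of the arm. Replicate 1 drew the same domain, but in replicate 2 the bin from 8100001 to 8200000 was intermediate, at 28.7%. The domain from 10200001 to 10400000 was covered at 50.1%, 45.4% and 45.4%. All but 4 of its 30 clusters were met by both replicates, and none was met by neither. Among the dense domains of the combined list, it also had the highest coverage in each replicate and the highest median score, 0.814. The only dense domain of the combined list on the centromere side ran from 19400001 to 19600000 and was covered at 45.0%, 30.6% and 42.7%, with 32 clusters of a median width of 2166 bp. Replicate 2 drew another there, from 18900001 to 19200000, covered at 41.9%, 32.8% and 36.8%.

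Single bins classed on 1 replicate, rather than whole domains, were read in the other, which the rule had not used. The 33 bins that were dense in replicate 1 were covered at 27.1% to 54.1% in replicate 2, with a median of 37.1%, against an arm mean of 15.1%. The 33 bins dense in replicate 2 were covered at 19.0% to 48.5% in replicate 1, with a median of 33.1%, against 13.7%. In each direction 29 of the 33 were dense in the other replicate as well. The 47 bins sparse in replicate 1 were covered at 0% to 5.88% in replicate 2, and 44 of them were sparse there. The 53 bins sparse in replicate 2 were covered at 0% to 9.36% in replicate 1, and the same 44 bins were sparse there. Over all 210 bins, the correlation of coverage in replicate 1 with that in replicate 2 was 0.950 (Pearson) and 0.954 (Spearman), values that describe neighbouring bins of 2 lists and carry no p.

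**Figure D2:**
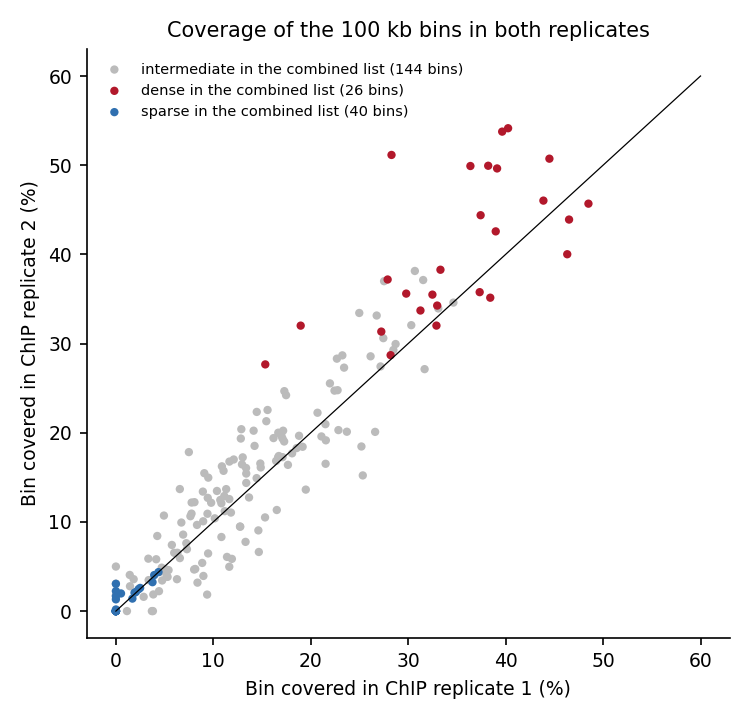
Percentage of each 100 kb bin covered in ChIP replicate 1 (horizontal axis) and ChIP replicate 2 (vertical axis), with 1 point for each of the 210 bins, coloured by its class in the combined list, and a line of equal coverage. Dense bins (26) lie at 15.3% or more in replicate 1 and at 27.7% or more in replicate 2, and sparse bins (40) lie at 4.37% or less in both.

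Dense bins had both more and wider clusters. Number and width make up coverage, so the rule that sets the classes itself favours both. Dense bins held 12.8 clusters per bin with a median width of 2755 bp, intermediate bins 7.53 with 2123 bp, and sparse bins 0.550 with 1634 bp. Clusters of at least 5 kb numbered 65 in dense bins, 91 in intermediate bins and 0 in sparse bins. The 0 says little about width, as a sparse bin is covered at 4.96% or less. A cluster of 5 kb wholly inside a bin would by itself take it out of that class. The dense bins are 12.4% of the bins and held 28.9% of the cluster length. The limit of 2 times the mean by itself makes that share large. The coverage of a bin and its number of clusters had a Pearson r of 0.88 (combined list), 0.93 (replicate 1) and 0.93 (replicate 2). This again describes neighbouring bins, and coverage is itself partly made of that number. Of the clusters in dense bins 65.5% were met by both replicates, against 49.3% in intermediate bins and 40.9% (9 of 22 clusters) in sparse bins. Wider clusters were met by both replicates more often over the whole arm, and how far width shaped these shares was not tested.

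Domains were short. The coverage of neighbouring 100 kb bins had a Pearson r of 0.27 in the combined list, 0.25 in replicate 1 and 0.27 in replicate 2. At a distance of 200 kb it was 0.10, 0.06 and 0.06, at 500 kb 0.11, 0.10 and 0.13, and at 1000 kb -0.01, -0.02 and 0.02. The fall with distance was thus not steady, as r was higher at 500 kb than at 200 kb in each list. Of the 26 dense bins, 11 had a dense neighbour and 3 had a sparse one, while 20 of the 40 sparse bins had a sparse neighbour. In replicate 1, 20 of 33 dense bins had a dense neighbour and 28 of 47 sparse bins a sparse one, and in replicate 2 it was 19 of 33 and 32 of 53. The longest dense run had 3 bins in each list, and the longest sparse run had 4 bins in the combined list and replicate 1 and 6 in replicate 2.

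All 7 sparse domains of the combined list lay on the centromere side of the arm. The emptiest ran from 15800001 to 16200000 and held no cluster base in any of the 3 lists. The domain from 11600001 to 11800000 was covered at 0.006% in the combined list and at 0% and 1.53% in the replicates. The domain from 12200001 to 12400000 held 1 cluster and was covered at 0.894%, 0.846% and 0.700%. The domain from 14700001 to 15000000 also held 1 cluster, at 0.334%, 0% and 0.439%, and that from 15500001 to 15700000 held 2, at 1.83%, 0.262% and 0.988%. The domain from 16900001 to 17300000 held 3 clusters, at 1.41%, 1.09% and 1.09%, and that from 17800001 to 18100000 held 1, at 0.732%, 0.684% and 0.715%. Drawn on the replicates, sparse domains also appeared on the telomere side, 2 of 11 in replicate 1 and 1 of 11 in replicate 2. Both replicates drew the one from 4600001 to 4800000, covered at 1.52% in replicate 1 and 1.03% in replicate 2. It was covered at 4.47% in the combined list, where only its second bin was sparse. In replicate 2 the domain from 17500001 to 18100000 spanned 6 bins and was covered at 0.668%, with 1.61% in replicate 1 and 2.61% in the combined list.

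Spacing was close for most neighbours and very wide for a few. Of the 1441 gaps between neighbouring combined clusters, 383 (26.6%) were shorter than 1 kb and the median was 2975 bp, with quartiles of 919 bp and 9323 bp. The median gap was 4724 bp in replicate 1 and 3900 bp in replicate 2. The 77 gaps of at least 50 kb were 5.34% of the gaps, against 4.55% over the 5 large arms. They made up 39.1% of the length of this euchromatin. In the replicate lists, 92 and 95 such gaps made up 49.7% ± 0.0724 of it (SD, n = 2). On the other arms this share was 34.0% ± 3.88 on 2R, 41.3% ± 1.60 on 3L, 45.8% ± 2.15 on 3R and 48.3% ± 4.28 on X (SD, n = 2 each). The share of 2L was the highest mean of the 5 arms, but it differed from that of X by less than the spread between the replicates of X.

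Gaps of at least 100 kb numbered 29 in the combined list, 9 on the telomere side and 20 on the centromere side. Of the 77 gaps of at least 50 kb, 64 held no whole cluster of either replicate, 12 held 1 whole cluster of replicate 2 and 1 held 1 whole cluster of replicate 1. None held a whole cluster of both. The combined list met 975 of the 979 clusters of replicate 1 and 1010 of the 1067 of replicate 2. Only the remaining 4 and 57 could lie whole in a gap, so these counts were low largely by construction.

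The longest gap of the arm ran from 15771099 to 16249329, which is 478.2 kb long. In replicate 1 it ran from 15769162 to 16250186 (481.0 kb) and in replicate 2 from 15769152 to 16250445 (481.3 kb), so both replicates placed its ends within 2 kb of the combined list. The cluster at its telomere end was 1001 bp wide and met by neither replicate, and that at its centromere end was 2867 bp wide and met by both. The gap was longer than the longest combined gap of any other arm treated in the same way, which was 333.9 kb on 3R, 312.6 kb on X, 257.0 kb on 3L and 225.8 kb on 2R. In the replicates the longest gap of another arm was on 3L, with 403.8 kb in each.

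The second longest combined gap, from 16911245 to 17264381, spanned 353.1 kb. It was bounded on the centromere side by a cluster of 1077 bp that neither replicate met, and the gap of the replicates went on to 17382598 (471.4 kb, replicate 1) and 17380449 (469.2 kb, replicate 2). The third ran from 14689741 to 14976577 and spanned 286.8 kb, with 315.2 kb in replicate 1 and 286.7 kb in replicate 2. Together with the longest one, these gaps lie in the stretch between 14 and 18 Mb.

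**Figure D3:**
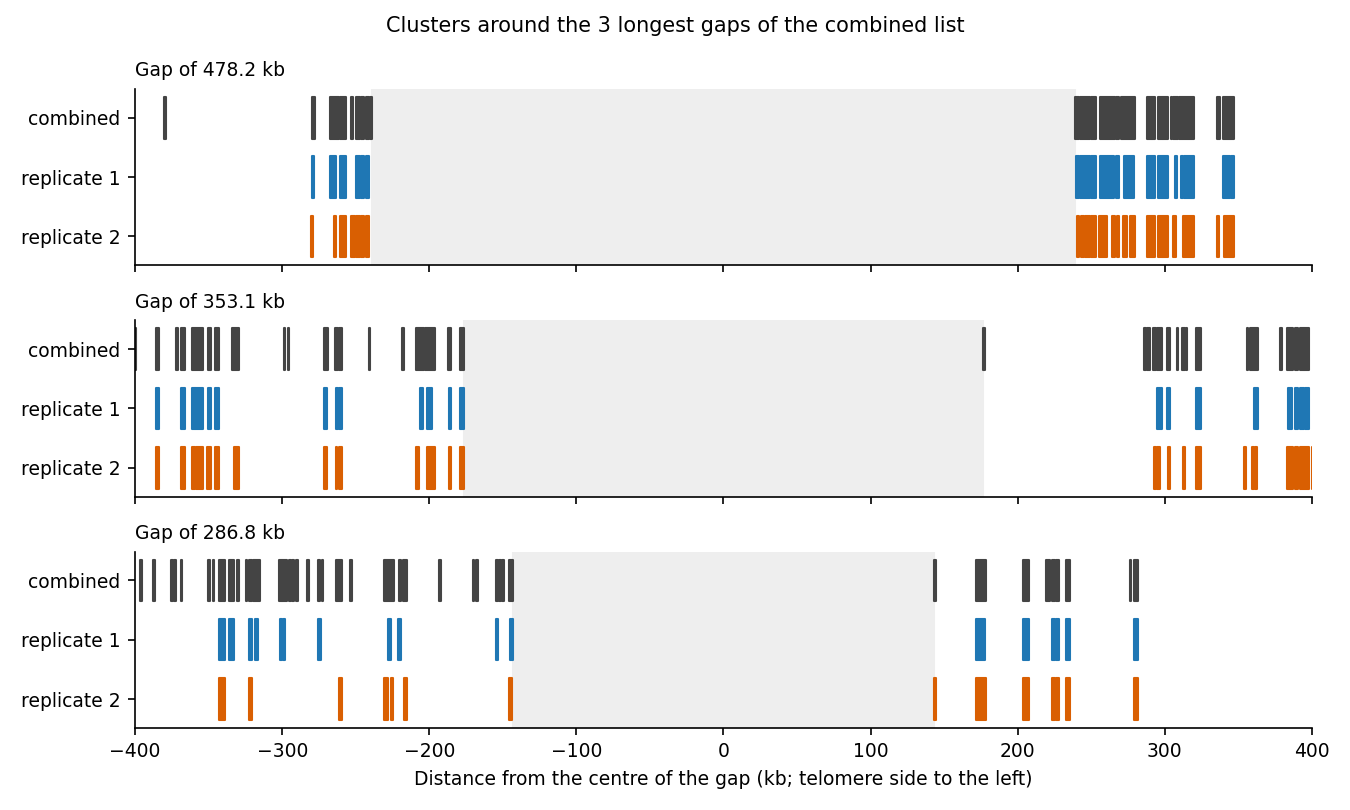
Clusters (bars) of the combined list and both ChIP replicates within 400 kb of the centre of the 3 longest gaps of the combined list (478.2, 353.1 and 286.8 kb, grey). The horizontal axis is the distance from the centre of the gap in kb; no replicate cluster lies wholly inside a grey area, and the second gap is longer in both replicates because the narrow cluster at its right edge was in neither.

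The next gaps were shorter. The fourth, from 11583023 to 11799989, spanned 217.0 kb (274.3 kb in replicate 1 and 271.5 kb in replicate 2). The fifth, from 12209151 to 12420031, spanned 210.9 kb and differed little between lists, with 211.6 and 217.3 kb. The sixth, from 17771949 to 17962519, spanned 190.6 kb in the combined list and 190.4 kb in replicate 1 but lay inside a gap of 460.7 kb in replicate 2. The eighth, from 14028953 to 14205753, spanned 176.8 kb (252.3 and 137.9 kb), and the ninth, from 20464279 to 20637299, spanned 173.0 kb (173.1 and 156.5 kb).

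Of the 10 longest gaps, 2 lay on the telomere side. The tenth, from 5548843 to 5720535, spanned 171.7 kb and almost as much in both replicates, at 172.0 kb each. The seventh, from 873041 to 1052929, spanned 179.9 kb (191.0 kb in replicate 1). Replicate 2 placed 1 whole cluster in it, and the longest cluster-free piece there was 142.8 kb. This gap directly followed a dense chain of 7 clusters from 810702 to 873040, of which 78.3% was covered in the combined list, 62.8% in replicate 1 and 79.2% in replicate 2. The cluster at the edge of the gap was 10027 bp wide and scored 1.63.

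**Figure D4:**
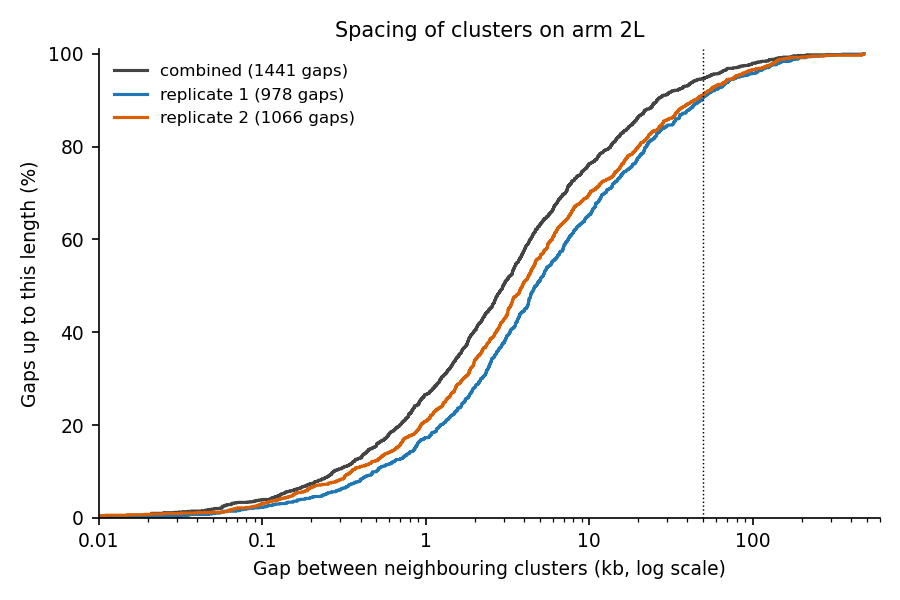
Cumulative percentage of gaps (vertical axis) up to a given length in kb (horizontal axis, log scale) between neighbouring clusters of arm 2L in the combined list and both ChIP replicates. Median gaps are 2975, 4724 and 3900 bp, and 77, 92 and 95 gaps lie at or to the right of the dotted line at 50 kb.

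Chains of clusters less than 5 kb apart show uneven filling at finer grain, though not only in the dense domains. Of the longest, those that begin at 810702, 6446166 and 7002734 lay in no dense domain of the combined list. The chain that begins at 7002734 lay in the dense domain from 6900001 to 7100000 that both replicates drew. The combined list formed 532 chains, of which 228 were lone clusters (15.8% of the clusters) and 12 had 10 or more clusters. The longest ran from 10356190 to 10440606, which is 84.4 kb, with 14 clusters. It was covered at 64.9% in the combined list, 56.5% in replicate 1 and 63.2% in replicate 2. Replicate 2 gave nearly the same chain, of 84.3 kb with 18 clusters, and replicate 1 a part of it, of 66.2 kb with 13. Next came chains from 6446166 to 6513996 (67.8 kb, 73.5% covered) and from 7002734 to 7066006 (63.3 kb, 65.6% covered), each with lower coverage in replicate 1 (53.0% and 44.1%) than in replicate 2 (63.4% and 58.8%). At 10 kb, the longest run of occupied bins in the combined list was 23 bins from 350001 to 580000. In the replicates it was 17 bins from 10290001 and 16 bins from 10300001, both ending at 10460000, so the longest filled stretch differed between the combined list and the replicates.

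Widths ran from 1001 bp to 20165 bp in the combined list, with a median of 2237 bp and quartiles of 1515 bp and 3426 bp. The median was 2402 bp in replicate 1 and 2339 bp in replicate 2, whose shortest clusters were both 1301 bp wide. Of the 1442 clusters, 156 were at least 5 kb wide and 29 at least 10 kb. On the other arms those of at least 10 kb numbered 36 (2R), 23 (3L), 31 (3R) and 53 (X). Wider clusters scored higher, with a Spearman rho of 0.67 across the 1442 clusters, which are not independent replicates.

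The 5 widest clusters met by both replicates included 4 in the 2 Mb nearest the telomere. The widest ran from 834470 to 854634 (20.2 kb, score 0.89) and met 1 cluster in each replicate, with scores of 0.94 and 0.95. It belongs to the dense chain beside the seventh longest gap. The next, from 1713746 to 1733056 (19.3 kb, 0.99), was split into 4 clusters by replicate 1 and into 2 by replicate 2. The cluster from 426894 to 444620 (17.7 kb, 0.53) met 4 in each. The cluster from 1405768 to 1423106 (17.3 kb, 0.59) met 3 and 2. On the centromere side, the cluster from 19153762 to 19171340 (17.6 kb, 0.75) was 3 clusters in replicate 1 but 1 in replicate 2. The replicates gave 3 of these 5 wide clusters in different numbers of pieces.

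The highest scores belonged to clusters of moderate width. The highest-scoring cluster of the arm ran from 19006740 to 19010186 (3447 bp) and scored 2.43 in the combined list, 2.63 in replicate 1 and 2.48 in replicate 2. The second, from 8040256 to 8044950 (4695 bp), scored 2.39, 2.38 and 2.46. The third, from 9965322 to 9969112 (3791 bp), scored 2.15, 2.27 and 2.15. The other 7 of the first 10 began at 7825310 (score 2.06), 558700 (2.03), 18441598 (2.03), 291706 (1.98), 10407432 (1.95), 13392350 (1.93) and 7422918 (1.87). All 10 overlapped a lone cluster of replicate 1 and a lone cluster of replicate 2, and their widths ran from 2539 bp to 5581 bp. Of the 10, 3 lay in a dense bin and 7 in an intermediate one, while dense bins held 23.1% of all members. The cluster from 18441598 to 18444136 stood at the edge of a gap of 63.1 kb.

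Replicate support was higher among wider and higher-scoring clusters. Both replicates met 763 of the 1442 clusters (52.9%, 95% Wilson interval 50.3 to 55.5, for counting of clusters only), against 48.8% over all 9877 clusters of the series. Replicate 1 alone met 151, replicate 2 alone met 188, and neither met 340 (23.6%, interval 21.5 to 25.8), against 26.3% over the series. At the median, clusters met by both were 3199 bp wide and scored 0.75, while those without support were 1222 bp wide and scored 0.33. By width, both replicates met 0 of 263 clusters up to 1300 bp (Wilson interval 0 to 1.44%), 42 of 336 (12.5%) from 1301 to 2000 bp and 294 of 374 (78.6%) from 2001 to 3000 bp. They met 277 of 313 (88.5%) from 3001 to 5000 bp, 106 of 112 (94.6%) from 5001 to 8000 bp and all 44 that were wider. By score, they met 13.3%, 17.5%, 81.4% and 99.4% from the lowest to the highest quartile. The combined scores come from the same ChIP samples as the replicate lists, and wide clusters reach an overlap of 1 bp more easily. How far this shaped these shares was not tested. The clusters up to 1300 bp are shorter than any cluster of a replicate list. The part of this in their lack of support was not tested.

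**Figure D5:**
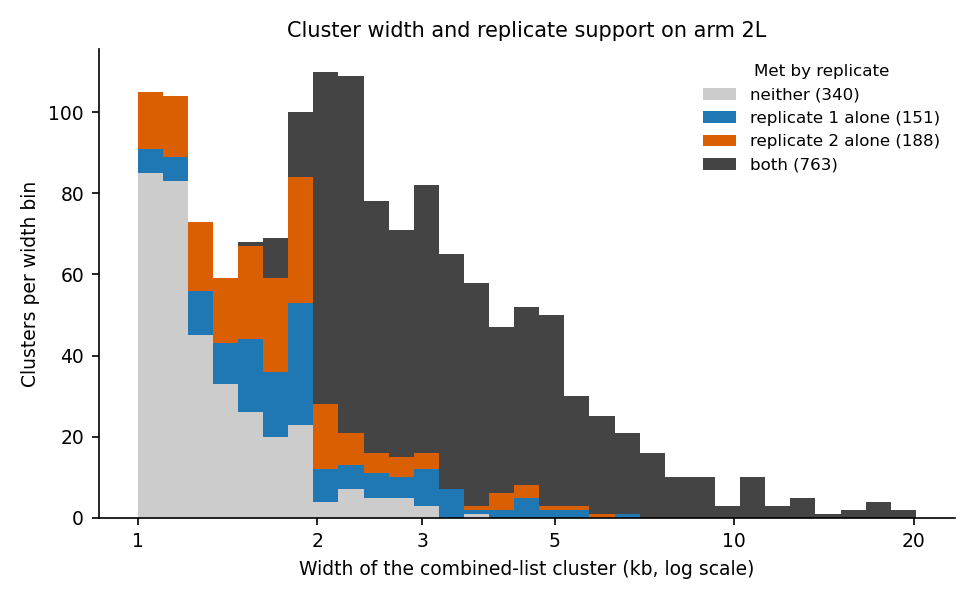
Number of combined-list clusters (vertical axis) by width in kb (horizontal axis, log scale) on arm 2L, stacked by the replicate lists they overlap by at least 1 bp. Below 1.3 kb no cluster is met by both replicates, and of clusters over 2 kb most are.

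Between the replicates, 815 of 979 replicate 1 clusters (83.2%, interval 80.8 to 85.5) overlapped a replicate 2 cluster, against 85.9% over the series. In the other direction it was 820 of 1067 (76.9%, interval 74.2 to 79.3), against 71.4%. In base pairs, 64.1% of the union of both lists was shared. The 164 replicate 1 clusters that replicate 2 did not meet had a median width of 1656 bp and the 247 of replicate 2 that replicate 1 did not meet had 1641 bp. Those that met the other list had medians of 2604 and 2660 bp. Where 1 combined cluster met exactly 1 cluster in each replicate (655 clusters), its ends were close in all lists. The start differed by a median of 104 bp (replicate 1) and 70 bp (replicate 2) and the end by 99 and 70 bp. The scores of these 655 clusters in replicate 1 and replicate 2 had a Spearman rho of 0.84, as a description.

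Width and support were also read against the distance between neighbours. The 102 clusters at least 10 kb from both neighbours had a median width of 1688 bp, and 38.2% of them were met by both replicates. The 652 clusters with a neighbour less than 1 kb away had 2376 bp and 54.6%. The 147 clusters that bordered a gap of at least 50 kb had a median width of 2183 bp and 55.8% support, beside 2255 bp and 52.6% for the other 1295.

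The highest-scoring clusters that neither replicate met were short. The first ran from 16280546 to 16281556 (1011 bp) with a score of 1.85, just past the longest gap. The second, from 20150396 to 20151396 (1001 bp), scored 1.21 and lay between gaps of 40.0 and 25.4 kb. The others, from 7983046 to 7984214, from 20190564 to 20191838 and from 8730712 to 8731712, scored 0.77, 0.77 and 0.70. All 5 were 1275 bp or shorter, below the shortest replicate cluster.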

How the data were processed

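The authors deposited 3 lists of enriched regions, 1 called per ChIP sample and 1 named as a replicate set, with a start, an end and a score per region. Per the submitters' processing notes, the aligner was Bowtie 0.12.7, and per the file headers the build is FlyBase release 5. Not given in the sources used here are the caller, its threshold, the meaning of the deposited score and the way replicates were combined. Read depth is unknown, so Wilson intervals cover counting of clusters only. Members, domains and lists were chosen with earlier results of these data known.

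From the lists, coverage was the percentage of bases inside clusters, gaps were the bases between neighbours, and clusters met when they overlapped by at least 1 bp. Bins of 100 kb, 10 kb and 1 Mb start at base 1 on 2L. Other arms were cut by the same 2 Mb. Regions typed as depleted (none on 2L) were left out. The text names the 10 highest-scoring and 5 widest members met by both replicates, the 5 highest-scoring met by neither, the 10 longest gaps and all runs of at least 2 dense or sparse bins of the combined list. Other regions were chosen after their values were seen. The bin rules were tested on simulated data with planted dense and empty bins. The planted dense bins held more clusters than any 100 kb bin of 2L, so a weaker contrast was not tested. Python 3.11.15, numpy 2.4.6, pandas 2.3.3, scipy 1.17.1 and matplotlib 3.10.9 were used.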

Additional observations from a re-analysis of the deposited data

How the results depend on the processing

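No paired analysis was possible because the input samples that share numbers with the ChIP samples have no list here and no result comes from a test. With only the 50% of members that scored highest, density was 34.3 clusters per Mb, coverage 13.7%, median width 3237 bp, median gap 6801 bp and the share met by both replicates 90.4%. With clusters met by both replicates only, density was 36.3 per Mb, coverage 14.4%, median width 3199 bp and median gap 5568 bp. Leaving out a replicate gave 46.6 to 50.8 clusters per Mb, 13.7% to 15.1% coverage, median widths of 2339 to 2402 bp, median gaps of 3900 to 4724 bp and 63.4% to 66.0% of members met. Joining clusters closer than 1 kb moved the median width to 2677 bp and the median gap to 5049 bp. A reciprocal overlap of 50% left 45.6% of members met by both. With limits of 1.5 and 0.5 times the mean, 24.8% of bins were dense and 31.4% sparse. By midpoints per bin, 6.19% were dense. With bins of 50 kb, 28.6% were sparse (5.71 per Mb) and 17.1% dense (3.43 per Mb). These settings change the set of clusters, the bins, the limits, the measure or the overlap rule. What lies behind each shift was not tested. The number of gaps of at least 50 kb stayed within 1.5 times of 77 in all 4 settings run, at 92 to 106. Without the read depth, a region called in 1 list may lie just under the threshold of another.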
